A study of Mus musculus with 31 samples.

Results

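The transcripts described here are 30 of the 55401 genes counted in each library. They encode the proteins of central nervous system myelin, the enzymes of myelin lipids, the transcription factors of the oligodendrocyte lineage, and markers of newly formed oligodendrocytes and of oligodendrocyte precursor cells. The members were taken by gene symbol from a list that was chosen with earlier results of these data known. All 30 were found in the count tables of the cortex and of the CD11b+ cells, that is, in pieces of tissue and in cells isolated as microglia. The series compared mice with and without the knock-in (KI) of PLCγ2-P522R, a variant of phospholipase C gamma 2, in the presence or absence of the APP/PS1 transgenes. Total counts of a gene do not read the KI allele itself.

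All mice were on the C57BL/6J background, 13 months old and perfused before the brain was taken, and each library came from 1 mouse. The KI line was made with CRISPR/Cas9. The transgene of APP/PS1 mice (A+) is driven by the promoter of the mouse prion protein. It encodes APP, part mouse and part human, that carries the Swedish mutation, and a human presenilin 1 from which exon 9 is missing. Temporo-occipital cortex was sequenced from females of the genotypes A-/Pwt/wt (no transgene, no KI, n = 1), A+/Pwt/wt (n = 4) and A+/Pki/ki (homozygous KI, n = 4). CD11b+ cells, isolated from the enzymatically dissociated brain with magnetic beads, were sequenced from A-/Pwt/wt (n = 7), A+/Pwt/wt (n = 4) and A+/Pki/ki females (n = 4). They were also sequenced from male mice without transgenes that were WT (n = 3) or KI (homozygous as well, n = 4). The CD11b+ labels carry batch tags, and the tag of A-/Pwt/wt differs from that shared by both APP/PS1 groups, so that the transgenes and the batch cannot be told apart. A further tag is shared by both male groups, and the cortex labels carry none. The number of mouse 236 appears on 2 libraries with different genotypes, A-/Pwt/wt for CD11b+ cells and A+/Pwt/wt for cortex, and both were used as labelled. *Cst7*, a gene of plaque-associated microglia, was 25.3 CPM in the former, where the other A-/Pwt/wt libraries had 10.5 to 32.6 CPM and the CD11b+ APP/PS1 libraries 581 to 973 CPM. In the latter it was 30.9 CPM, where the A-/Pwt/wt cortex had 0.281 CPM.

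Oligodendrocytes wrap axons in compact myelin, and their cell bodies make the lipids and proteins of the sheath. Precursor cells divide and migrate under platelet-derived growth factor, then leave the cycle, pass a short premyelinating stage and switch on the myelin genes under the factors SOX10, OLIG1, OLIG2 and MYRF. The mRNA of some myelin proteins, that of myelin basic protein above all, is carried out along the processes and translated at the sheath, and membranous pieces of myelin are a known component of dissociated adult brain. Microglia also take up myelin.

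Levels are given in CPM (counts of a gene per M, or mega, of counts in its library), scaled by TMM over all 31 libraries, and between genes as mean CPM per kb of exon. In the cortex of A+/Pwt/wt mice the order of the levels per kb was led by *Mbp*, encoding myelin basic protein (229 CPM per kb), *Trf*, encoding the iron carrier transferrin (91.9), the lineage factor *Olig1* (80.8), *Mobp*, encoding a basic protein of the compact sheath (80.8), and *Cnp*, encoding a phosphodiesterase of non-compact myelin (77.3). It ended with *Enpp6*, a choline phosphodiesterase of newly formed oligodendrocytes (1.24), and *Vcan*, the precursor proteoglycan versican (0.975). In the CD11b+ libraries of the same genotype *Mbp* (3460.4 CPM per kb), *Mobp* (1580.3), *Bcas1*, a marker of newly formed and myelinating oligodendrocytes (620.0), and *Trf* (474) came first, well above *Cnp* (46.3) and *Mal*, a proteolipid of membrane rafts (42.5). *Olig1* stood at 17.7 CPM per kb there. In cortex *Bcas1* was at 30.2 CPM per kb, below *Cnp*.

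The proximal promoters were read for the motifs of SOX factors and of MYRF, since *Sox10* and *Myrf* are themselves members. Whether these motifs bear on the levels was not tested. RefSeq promoter windows (GRCm38.p6, 250 bases before to 50 bases after the start of transcription) were matched to 21 of the 30 genes, 24 windows in all. No window was matched to *Mbp*, *Bcas1*, *Trf*, *Sox10*, *Myrf*, *Olig1*, *Fa2h*, *Gpr17* or *Cspg5*, so their promoters were not searched. The core motif of SOX factors, searched as ACAAAG or ACAATG on both strands, was found in 9 of the 24 windows (37.5%) and in 28.6% of all 32851 windows. The motif of MYRF, searched as CTGGCAC or CTGGTAC on both strands, was found in 5 of the 24 windows (20.8%) and in 7.1% of all windows. The 9 windows belong to 8 genes and the 5 windows to 4 genes, since *Mag* has 2 overlapping windows that hold the same sites. These shares describe the letters of the windows, not binding. The promoters of 4 genes of myelin membrane proteins are shown, those of *Cnp* and *Opalin* because they hold both motifs, as do the windows of *Mag*, which are not shown, that of *Mog* because it holds the MYRF motif alone, and that of *Mobp* for its number of SOX cores. Capitals mark the matches on either strand. *Mobp* (chr9:120149492-120149791, plus strand) held 6 cores, all on the opposite strand and between 243 and 120 bases before the start. *Cnp* lies at chr11:100574689-100574988, plus strand, *Mog* at chr17:37023349-37023648, minus strand, and *Opalin*, a glycoprotein of the paranodal loops, at chr19:41077064-41077363, minus strand.
Mobp: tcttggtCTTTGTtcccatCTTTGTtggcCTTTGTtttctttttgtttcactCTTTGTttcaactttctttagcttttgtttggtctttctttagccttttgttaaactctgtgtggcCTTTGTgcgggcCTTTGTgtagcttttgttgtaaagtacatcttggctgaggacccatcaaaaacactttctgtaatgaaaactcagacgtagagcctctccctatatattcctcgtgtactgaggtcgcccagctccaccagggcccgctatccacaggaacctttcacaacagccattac
Cnp: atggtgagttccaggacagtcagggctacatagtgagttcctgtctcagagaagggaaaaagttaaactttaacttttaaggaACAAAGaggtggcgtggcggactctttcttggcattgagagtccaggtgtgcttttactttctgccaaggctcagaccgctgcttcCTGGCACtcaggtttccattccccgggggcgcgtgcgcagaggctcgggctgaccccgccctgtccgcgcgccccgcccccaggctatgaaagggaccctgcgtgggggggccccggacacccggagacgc
Mog: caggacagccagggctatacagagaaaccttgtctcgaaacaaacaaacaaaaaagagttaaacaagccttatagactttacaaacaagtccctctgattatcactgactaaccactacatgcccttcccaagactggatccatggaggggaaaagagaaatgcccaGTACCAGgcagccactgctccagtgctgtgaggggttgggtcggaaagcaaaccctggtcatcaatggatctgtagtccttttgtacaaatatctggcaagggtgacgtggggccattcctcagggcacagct
Opalin: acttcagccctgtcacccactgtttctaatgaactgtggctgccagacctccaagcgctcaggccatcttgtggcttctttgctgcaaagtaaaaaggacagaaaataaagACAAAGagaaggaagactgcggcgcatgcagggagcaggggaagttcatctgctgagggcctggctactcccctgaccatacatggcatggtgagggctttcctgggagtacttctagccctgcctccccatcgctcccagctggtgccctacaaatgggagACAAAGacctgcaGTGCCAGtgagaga

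Between 25.2 and 43.1 M counts were assigned to genes in each cortex library, 18.9 to 25.1 M in each CD11b+ library of females and 16.2 to 19.9 M in each library of males. The 30 transcripts took 0.448% to 0.691% of the counts of the cortex libraries and 0.936% to 6.05% of those of the CD11b+ libraries, and *Mbp* alone took up to 4.13%. Several CD11b+ libraries stood apart from the rest of their group. Mouse 223 (A-/Pwt/wt) had a share of 6.05% and the highest share of mitochondrially encoded transcripts, 24.5% of its counts, of all 31 libraries. Of the A+/Pki/ki mice, 335 had a share of 5.84% with 19.4% mitochondrial transcripts, while 394 and 405 had shares of 0.936% and 0.995% with 3.77% and 3.45%. The fourth, 244, had 3.12% with 7.54%. The mean log2 CPM of the 30 transcripts (± SD) was 6.03 ± 0.18 in A+/Pwt/wt and 6.03 ± 0.13 in A+/Pki/ki cortex and 5.76 in the single A-/Pwt/wt cortex. In CD11b+ libraries it was 4.96 ± 0.84 in A-/Pwt/wt, 5.02 ± 0.40 in A+/Pwt/wt, 4.29 ± 1.11 in A+/Pki/ki, 3.96 ± 0.18 in male WT and 4.86 ± 0.36 in male KI mice. The A+/Pki/ki libraries of CD11b+ cells had the largest SD of these groups.

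**Figure D1:**
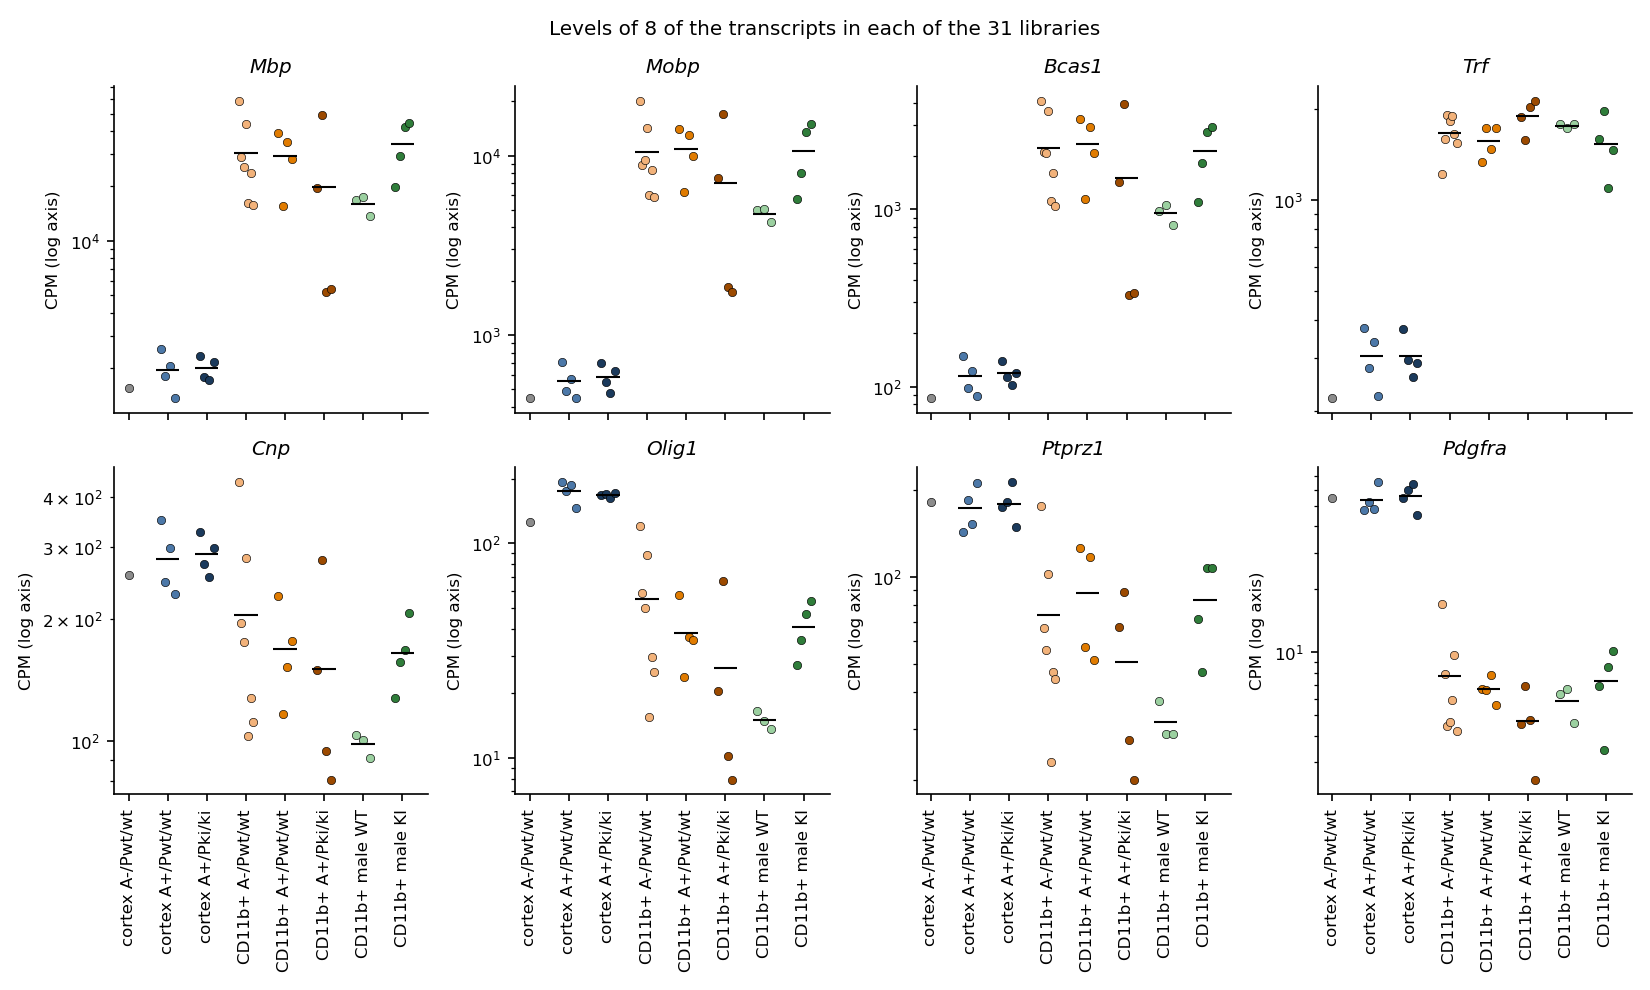
Levels of 8 transcripts in each of the 31 libraries, in CPM on a log axis. Points are libraries (1 mouse each), horizontal bars are group means, and groups are ordered from cortex to CD11b+ cells. Mbp, Mobp, Bcas1 and Trf lie higher in CD11b+ libraries than in cortex, and Olig1 and Pdgfra lower.

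The first comparison asked whether the KI changes the oligodendrocyte lineage in the cortex of APP/PS1 females. Levels overlapped between A+/Pki/ki and A+/Pwt/wt cortex for each of the 30 transcripts. None passed the test (edgeR, FDR 0.05), and the same held for all of the 18640 genes tested (0% called, 514 genes at an unadjusted p under 0.05, 11 called by DESeq2). In total, 18 of the 30 log2 fold changes (log2FC, A+/Pki/ki over A+/Pwt/wt) were positive. Their median was 0.01, where that of all genes was 0.00, and they ran from -0.24 (*Enpp6*) to 0.18 (*Gpr17*). Of all genes, 1.85% had ranges that did not overlap. In bulk tissue, fewer cells of a type and less RNA per cell cannot be told apart.

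Of the myelin proteins, *Mbp* was at 2539, 1812, 2052 and 1361 CPM in the A+/Pwt/wt cortex of mice 236, 257, 259 and 329. In the A+/Pki/ki cortex of mice 184, 203, 216 and 222 it was at 2316, 1791, 1715 and 2149 CPM (log2FC 0.03 ± 0.17, adjusted p = 1.00). The lowest and the highest library were both A+/Pwt/wt, and the A-/Pwt/wt cortex had 1549 CPM. *Mobp* was at 711, 488, 570.0 and 446 CPM against 697, 551, 475 and 629 CPM (log2FC 0.08 ± 0.15, adjusted p = 1.00). *Cnp* was at 349.5, 247, 299 and 230.4 CPM against 327, 274, 254 and 299 CPM (log2FC 0.02 ± 0.13, adjusted p = 1.00). For both the A+/Pki/ki values fell within the A+/Pwt/wt range, and mouse 236 was highest. The other 8 genes of myelin and membrane proteins had log2FC of -0.04 (*Mag*) to 0.04 (*Opalin*).

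Among the genes of myelin lipids, *Ugt8a*, encoding the enzyme that makes galactosylceramide, was at 47.4, 40.1, 47.0 and 38.6 CPM in A+/Pwt/wt and 49.2, 40.1, 33.1 and 36.7 CPM in A+/Pki/ki cortex (log2FC -0.14 ± 0.12, adjusted p = 1.00). *Fa2h*, encoding the hydroxylase of its fatty acid, was at 42.9, 37.1, 41.6 and 30.5 CPM against 42.6, 37.2, 32.8 and 40.0 CPM (log2FC -0.01 ± 0.11, adjusted p = 1.00). *Aspa*, encoding the aspartoacylase that releases acetate from N-acetylaspartate, was at 21.5, 13.9, 16.6 and 15.1 CPM against 18.4, 14.4, 10.8 and 14.9 CPM (log2FC -0.22 ± 0.17, adjusted p = 1.00). The ranges overlapped for each of them. *Trf* was at 377, 279, 339 and 225 CPM against 375, 295, 259.8 and 289.9 CPM (log2FC -0.01 ± 0.15, adjusted p = 1.00), again with overlapping ranges.

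The lineage factors overlapped as well. *Olig1* was at 192, 176, 186 and 145 CPM in A+/Pwt/wt and 168, 169, 161 and 171 CPM in A+/Pki/ki cortex (log2FC -0.07 ± 0.09, adjusted p = 1.00), *Sox10* at 74.2, 53.3, 64.5 and 49.7 CPM against 68.0, 57.2, 57.0 and 67.6 CPM (log2FC 0.04 ± 0.12, adjusted p = 1.00), and *Myrf* at 67.7, 48.4, 58.2 and 45.6 CPM against 60.9, 51.4, 51.8 and 52.9 CPM (log2FC -0.03 ± 0.12, adjusted p = 1.00). The A+/Pki/ki values of *Olig1* spanned less than those of A+/Pwt/wt. Of the genes of newly formed cells, *Bcas1* was at 149, 97.9, 122 and 88.0 CPM against 140.0, 114, 102 and 119 CPM (log2FC 0.04 ± 0.15, adjusted p = 1.00), *Gpr17*, a receptor that is switched off before myelination, at 36.5, 41.1, 35.6 and 35.5 CPM against 34.5, 44.6, 54.0 and 36.7 CPM (log2FC 0.18 ± 0.12, adjusted p = 1.00), and *Enpp6* at 9.12, 8.01, 8.30 and 6.35 CPM against 7.40, 6.73, 6.38 and 6.64 CPM (log2FC -0.24 ± 0.12, adjusted p = 1.00). Mouse 216 had the highest *Gpr17* and the lowest *Opalin* of the A+/Pki/ki cortices.

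The precursor genes had positive log2FC in 7 of 7, with a median of 0.05. *Cspg5*, the proteoglycan neuroglycan C, was at 311, 332, 301 and 281 CPM against 303, 317, 338 and 283 CPM (log2FC 0.01 ± 0.07, adjusted p = 1.00), *Ptprz1*, a receptor phosphatase, at 144, 185, 152 and 211 CPM against 174, 181, 212 and 148 CPM (log2FC 0.04 ± 0.12, adjusted p = 1.00), and *Pdgfra*, the receptor for platelet-derived growth factor, at 48.1, 52.6, 48.8 and 65.1 CPM against 54.9, 59.5, 63.5 and 45.3 CPM (log2FC 0.04 ± 0.11, adjusted p = 1.00). The ranges overlapped for each. No further gene of these cells was called: of 24 other oligodendrocyte genes (led in abundance by *Plekhb1*, *Qdpr* and *Sirt2*) 6 had a positive log2FC (median -0.06), and of 15 other precursor genes (led by *Bcan*, *Tnr* and *Sulf2*) 7 (median -0.01). The median of the 30 transcripts lay between -0.08 and 0.10 when each library was left out in turn.

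The next comparison set the CD11b+ libraries of A+/Pwt/wt females beside the cortex of the same genotype. The transcripts did not differ in 1 direction. *Mbp*, *Mobp* and *Bcas1* were about 4 log2 units higher in the CD11b+ libraries than in cortex, whereas the lineage factors, the lipid enzymes and most precursor genes were lower. At an adjusted p under 0.05, 6 of the 30 transcripts were higher (37.7% of all 18541 genes tested) and 21 were lower (40.2% of all genes). The median log2FC (CD11b+ over cortex) was -1.51, against -0.06 over all genes. The ranges of the 4 and 4 libraries did not overlap for 5 transcripts that were higher (34.8% of all genes) and 20 that were lower (38.1% of all genes). Isolation, RNA extraction, brain region and mice all differ with the tissue. Mitochondrial transcripts took 9% to 16.7% of the counts of these CD11b+ libraries and 4.02% to 5.58% of those of these cortices. The part of mitochondrial RNA in the result was not tested.

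In the CD11b+ cells of mice 331, 367, 375 and 380, *Mbp* was at 38904, 15427, 34702 and 28191 CPM, far above the cortex values given before (log2FC 3.98 ± 0.32, adjusted p = 7.46e-07). *Mobp* was at 14081, 6278, 12983 and 9952 CPM (log2FC 4.35 ± 0.29, adjusted p = 1.34e-07) and *Bcas1* at 3236, 1141, 2913 and 2072 CPM (log2FC 4.42 ± 0.33, adjusted p = 3.84e-07). Mouse 331 was highest and mouse 367 lowest for these 3 genes, and the lowest CD11b+ library had more than 6 times the level of the highest A+/Pwt/wt cortex. *Trf* was at 1336, 1738, 1477 and 1738 CPM (log2FC 2.43 ± 0.18, adjusted p = 3.83e-07), and here mouse 331 was lowest and 367 highest. The other members that were higher were *Cspg4*, a proteoglycan of precursors that pericytes also express (log2FC 0.80 ± 0.17, adjusted p = 0.00151), and the gap junction gene *Gjc3* (log2FC 0.62 ± 0.18, adjusted p = 0.00933).

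Other genes of the sheath went the opposite way. *Cnp* was at 228, 117, 152 and 177 CPM in the CD11b+ libraries (log2FC -0.68 ± 0.20, adjusted p = 0.00919), with ranges that were separate on the scale printed here and overlapped under the scaling of this comparison. *Fa2h* was at 4.58, 3.21, 5.24 and 4.79 CPM (log2FC -3.03 ± 0.17, adjusted p = 4.4e-08), *Ugt8a* at 20.0, 10.97, 20.9 and 19.9 CPM (log2FC -1.21 ± 0.18, adjusted p = 0.000105) and *Aspa* at 7.94, 3.13, 6.20 and 5.15 CPM (log2FC -1.52 ± 0.25, adjusted p = 0.000189). All 4 CD11b+ libraries lay below all 4 cortices for these 3 lipid genes. *Mog*, encoding a glycoprotein of the outer sheath (log2FC -1.90 ± 0.28), *Mag*, of the inner sheath (-1.50 ± 0.21), *Cldn11*, of its tight junctions (-2.30 ± 0.24), and *Opalin* (-1.70 ± 0.26) were lower as well. *Mal* (log2FC -0.36 ± 0.23), *Ermn*, of the cytoskeleton of the processes (-0.07 ± 0.22), and *Tspan2*, a tetraspanin (-0.03 ± 0.19), did not pass the test.

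All 5 lineage factors fell (median log2FC -2.13). *Olig1* was at 57.3, 23.9, 36.4 and 35.6 CPM (log2FC -2.13 ± 0.22, adjusted p = 6.13e-06), *Sox10* at 12.9, 5.95, 9.51 and 12.02 CPM (log2FC -2.52 ± 0.22, adjusted p = 1.47e-06) and *Myrf* at 25.3, 14.5, 22.7 and 22.6 CPM (log2FC -1.31 ± 0.18, adjusted p = 4.69e-05). No CD11b+ library reached the lowest cortex. Of the newly formed stage, *Gpr17* was at 8.81, 3.79, 4.52 and 8.02 CPM (log2FC -2.50 ± 0.24, adjusted p = 2.78e-06) and *Enpp6* at 2.00, 1.23, 1.81 and 3.07 CPM (log2FC -1.91 ± 0.25, adjusted p = 4.01e-05), so that *Bcas1* stood alone in its group. Apart from *Cspg4* the precursor genes fell: *Cspg5* was at 66.7, 24.5, 40.8 and 28.4 CPM (log2FC -2.87 ± 0.28, adjusted p = 2.89e-06), *Ptprz1* at 126, 57.6, 117 and 51.7 CPM (log2FC -0.91 ± 0.28, adjusted p = 0.0111) and *Pdgfra* at 6.67, 6.61, 7.83 and 5.57 CPM (log2FC -2.94 ± 0.14, adjusted p = 1.58e-08). *Ptprz1* was the least lowered of them, and the largest fall was that of *Lhfpl3*, a tetraspan membrane protein of unclear role (log2FC -3.43 ± 0.21).

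**Figure D2:**
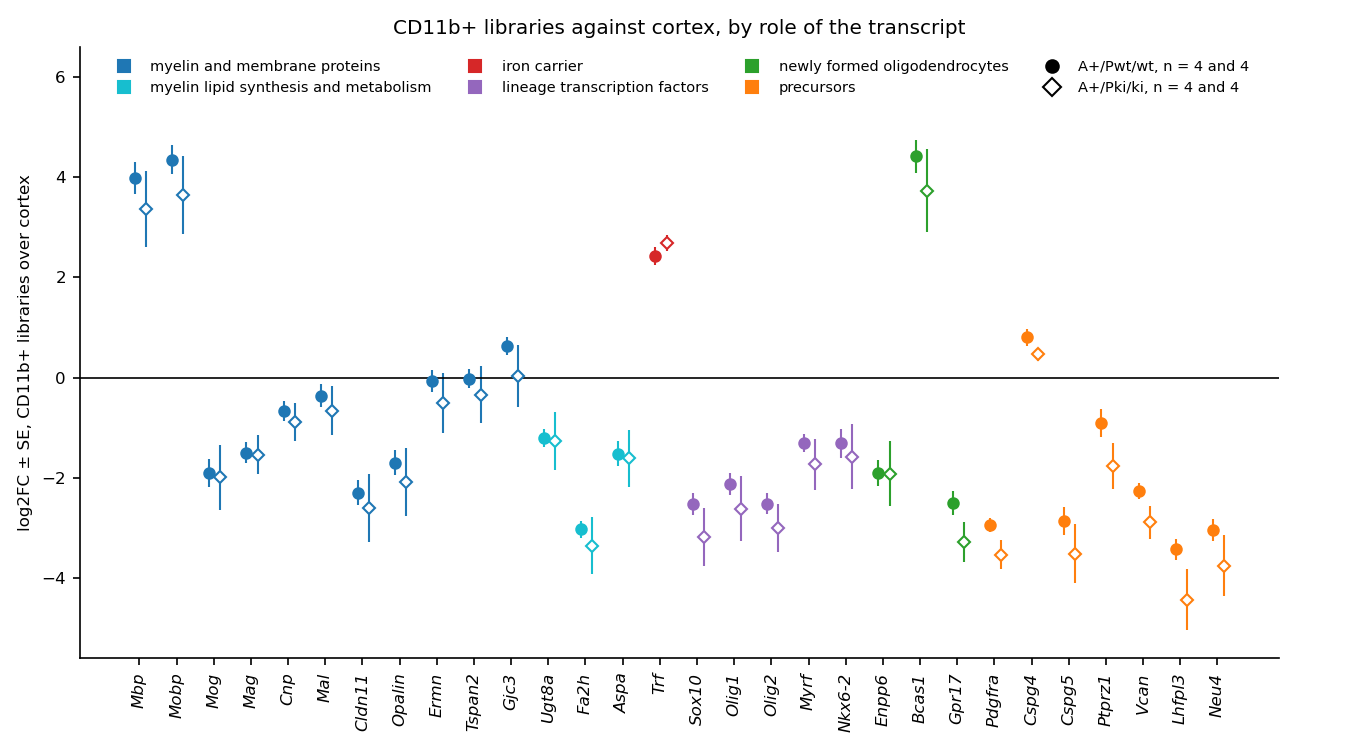
Log2FC of each of the 30 transcripts between CD11b+ libraries and cortex, with SE bars, coloured by role. Filled circles are A+/Pwt/wt mice and open diamonds A+/Pki/ki mice (4 and 4 libraries each). Mbp, Mobp, Bcas1 and Trf lie between 2 and 5 and most other transcripts below 0.

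Of the 24 other oligodendrocyte genes 7 were higher (37.7% of all genes), among them *Plekhb1* (log2FC 3.06 ± 0.28), *Qdpr* (1.90 ± 0.29), *Sirt2* (0.85 ± 0.12) and *Evi2a* (3.07 ± 0.14), and 9 were lower (40.2% of all genes), with a median of 0.06. Of the 15 other precursor genes 14 were lower (median -2.52). Markers of other cells moved too: all 12 microglial genes were higher (median 4.78), as were all 8 endothelial (3.15), 6 mural (1.24) and 5 choroid plexus genes (3.54), while all 12 neuronal (-3.87) and all 12 astrocyte genes (-0.99) were lower. *Cspg4* is a member here and 1 of the 6 mural genes. Microglial genes, led by *Csf1r*, summed to 18362, 27965, 22913 and 23771 CPM in the CD11b+ libraries against 869, 930.2, 795 and 788 CPM in cortex, and neuronal genes, led by *Camk2a*, to 1779.6, 926, 1775 and 1461 CPM against 11067, 11873, 12033 and 10729.7 CPM. Astrocyte genes, led by *Slc1a2*, summed to 3383, 1387, 2383 and 1315 CPM against 5153, 6110.1, 5485 and 5466 CPM, and endothelial genes, led by *Flt1*, to 2444, 1271, 1822 and 1281 CPM against 191, 247, 168 and 216 CPM. Mural genes, led by *Rgs5* in CD11b+ libraries, summed to 662, 326, 432 and 324 CPM against 172, 211, 154 and 184 CPM. Choroid plexus genes, led by *Kl* in CD11b+ libraries, summed to 182, 47.9, 109 and 221 CPM against 15.5, 12.03, 9.25 and 17.97 CPM. The sums of neuronal and astrocyte genes were lower and the others higher in every CD11b+ library than in any of these cortices. None of these lists had a gene at 0 in every library. Of 4 Schwann cell genes, *Pmp2* was at 0 in every library, and the summed level of the list, led by *Prx*, was at most 4.72 CPM in any cortex and 3.47 CPM in any CD11b+ library, with 0 of the 3 tested called (median -1.27). The part of these cells in the levels of the members was not tested.

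With the A+/Pki/ki libraries of both tissues in place of A+/Pwt/wt, 5 members were higher (36.8% of all genes) and 18 lower (39.8% of all genes), with a median of -1.75. Without CD11b+ library 335, left out after seeing the data, 5 were higher (38.9% of all genes) and 24 lower (43.1% of all genes), with a median of -2.44. Without 394 and 405, 6 were higher (34.6% of all genes) and 16 lower (36.5% of all genes), with a median of -1.02. In the fit of all 8 A+/Pki/ki libraries *Gjc3*, *Cnp*, *Ugt8a* and *Nkx6-2* were no longer called. Without 335 the log2FC of *Gjc3* was negative (-0.76, adjusted p = 0.150), and without 394 and 405 it was 0.87 (adjusted p = 0.0184). With library totals in place of TMM, 5 members were higher (29.3% of all genes) and 22 lower (49.2% of all genes), with a median of -1.89 where that of all genes was -0.42.

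Ratios within a library do not depend on the scaling. *Mbp* over *Cnp* was 5.91 to 7.35 in the 9 cortex libraries (median 6.86) and 55.0 to 254 in the 22 CD11b+ libraries (median 156). For *Mobp* over *Cnp* the ratios were 1.75 to 2.13 and 19.6 to 85.3, and for *Bcas1* over *Cnp* 0.335 to 0.428 and 3.47 to 19.1. For each of the 3 ratios the lowest CD11b+ library exceeded the highest cortex. In contrast, *Mog* over *Cnp* was 0.127 to 0.155 in cortex and 0.0331 to 0.101 in CD11b+ libraries, and *Olig1* over *Cnp* was 0.488 to 0.713 and 0.0988 to 0.311. *Mbp*, *Mobp*, *Bcas1* and *Trf* together made up 53.5% to 62.1% of the CPM of all 30 transcripts in cortex and 96.4% to 98.4% in CD11b+ libraries. These are the 4 members for which every CD11b+ library lay above every cortex, so a larger share there follows from the choice of genes.

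**Figure D3:**
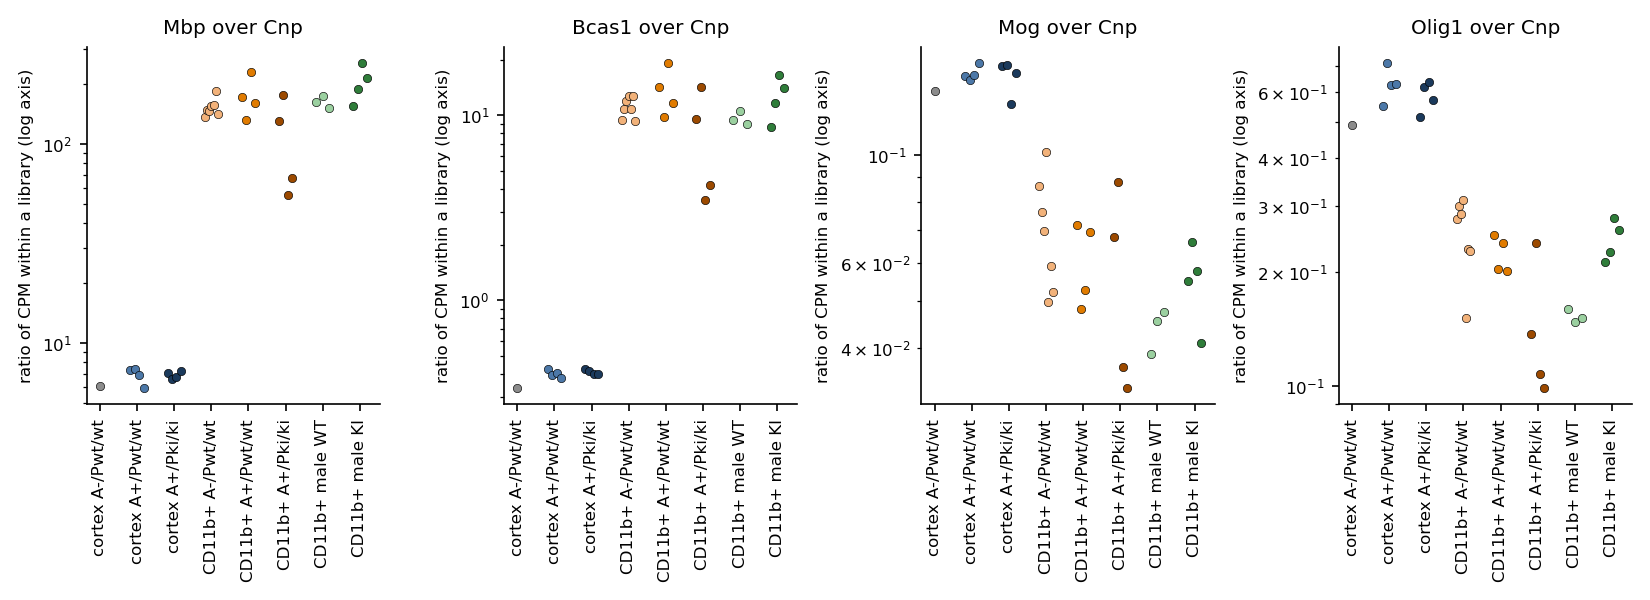
Ratios of Mbp, Bcas1, Mog and Olig1 to Cnp within each of the 31 libraries, on log axes. Points are libraries, by group. Mbp over Cnp and Bcas1 over Cnp are higher in every CD11b+ library than in any cortex, and Mog and Olig1 over Cnp are lower.

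In CD11b+ cells of APP/PS1 females, the KI was compared with the wild-type allele within a batch tag. No member passed the test, and the 4 A+/Pki/ki libraries were widely scattered. Of the 30 transcripts 29 had a negative log2FC (A+/Pki/ki over A+/Pwt/wt), with a median of -0.47 where that of all genes was 0.00. None of the 17039 genes tested was called (0%, 575 at an unadjusted p under 0.05, 7 called by DESeq2). The groups overlapped for all 30 transcripts, and 2.25% of all genes had ranges that did not.

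*Mbp* was at 19499.6, 49058, 5195 and 5407 CPM in mice 244, 335, 394 and 405 (log2FC -0.58 ± 0.75, adjusted p = 0.854). *Mobp* was at 7543, 17108, 1854 and 1744 CPM (log2FC -0.63 ± 0.73, adjusted p = 0.853), *Bcas1* at 1429.8, 3960.0, 327 and 337 CPM (log2FC -0.64 ± 0.80, adjusted p = 0.853) and *Cnp* at 149.6, 279, 94.4 and 80.4 CPM (log2FC -0.18 ± 0.41, adjusted p = 0.895). In each, 335 exceeded every A+/Pwt/wt library and 394 and 405 lay below every one. The same held for *Olig1*, at 20.6, 66.5, 10.2 and 7.94 CPM (log2FC -0.56 ± 0.65, adjusted p = 0.853), for *Sox10*, at 5.79, 15.6, 3.12 and 2.18 CPM (log2FC -0.62 ± 0.59, adjusted p = 0.853), and for *Myrf*, at 18.3, 31.5, 6.25 and 6.71 CPM (log2FC -0.46 ± 0.52, adjusted p = 0.853). The lipid genes behaved alike, with *Ugt8a* at 16.1, 36.2, 6.08 and 5.28 CPM (log2FC -0.19 ± 0.59, adjusted p = 0.923), *Fa2h* at 3.53, 8.17, 1.64 and 1.11 CPM (log2FC -0.32 ± 0.58, adjusted p = 0.877) and *Aspa* at 3.80, 10.8, 2.41 and 1.43 CPM (log2FC -0.30 ± 0.61, adjusted p = 0.885). Each pair of lipid gene values of 394 and 405 lay under the lowest A+/Pwt/wt value.

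Of the rarer transcripts, *Gpr17* was at 4.52, 7.51, 2.80 and 2.10 CPM (log2FC -0.60 ± 0.45, adjusted p = 0.853), *Enpp6* at 1.81, 4.19, 0.329 and 0.596 CPM (log2FC -0.25 ± 0.72, adjusted p = 0.918) and *Pdgfra* at 4.57, 6.89, 4.77 and 2.46 CPM (log2FC -0.55 ± 0.30, adjusted p = 0.853). For these 3 genes mouse 335 was highest of the A+/Pki/ki group, but within the A+/Pwt/wt range for *Gpr17* and *Pdgfra*. *Cspg5* was at 23.2, 59.0, 15.5 and 7.23 CPM (log2FC -0.64 ± 0.61, adjusted p = 0.853) and *Ptprz1* at 67.0, 89.0, 27.4 and 20.0 CPM (log2FC -0.81 ± 0.52, adjusted p = 0.853), again with 335 within the A+/Pwt/wt range and 394 and 405 below it. *Trf*, the only member with a positive value, was at 1888, 1578, 2028 and 2133 CPM (log2FC 0.24 ± 0.16, adjusted p = 0.853), and here 394 and 405 were highest and 335 lowest.

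Other cell types moved with the libraries. The 12 neuronal genes, led by *Camk2a*, summed to 541, 2356, 319 and 189 CPM in mice 244, 335, 394 and 405 (12 of 12 negative, median -0.84). The 12 astrocyte genes, led by *Slc1a2*, summed to 1488, 2507, 779.6 and 570.5 CPM (12 of 12 negative, -0.69). The 12 microglial genes, led by *Csf1r*, summed to 27162, 20486, 31400.0 and 31238 CPM (12 of 12 positive, 0.22). Endothelial genes (8 of 8, median -0.46), mural genes (6 of 6, -0.51), choroid plexus genes (5 of 5, -1.11), 23 of 24 other oligodendrocyte genes (-0.42), 12 of 14 tested other precursor genes (-0.59) and the Schwann cell gene tested (-0.05) had negative log2FC, and none of any list was called or at 0 in every library except *Pmp2*. Their part in the result was not tested. Without mice 394 and 405, an alternative chosen after seeing the data, 23 of the 30 transcripts were positive and the median was 0.21. Without 335 it was -1.18, with 22 members at an unadjusted p under 0.05 (27.3% of all 16825 genes tested in that fit), and without 394 or 405 alone it was -0.21 and -0.23. None of these fits called a member.

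The comparison of A+/Pwt/wt with A-/Pwt/wt asked what the APP/PS1 transgenes do in female CD11b+ cells, within the limit of the batch. None of the 30 transcripts was called, whereas 224 of 17355 genes (1.29%) were. In all, 7 members had a positive log2FC (A+/Pwt/wt over A-/Pwt/wt) and the median was -0.16, against -0.03 for all genes. No member had separate ranges, as 3.23% of all genes did. The A-/Pwt/wt libraries of *Mbp* ran from 15657 to 58772 CPM with a median of 25466 CPM (log2FC -0.04 ± 0.39, adjusted p = 0.998). Those of *Mobp* ran from 5858 to 20149.5 CPM with a median of 8888 CPM (log2FC 0.06 ± 0.35, adjusted p = 0.998) and those of *Cnp* from 103 to 434 CPM with a median of 175 CPM (log2FC -0.27 ± 0.35, adjusted p = 0.938). The highest was mouse 223 for each, and the A+/Pwt/wt values lay inside these ranges, except that mouse 367 was just below the lowest *Mbp* value. The A-/Pwt/wt values of *Trf* ran from 1224 to 1909 CPM with a median of 1662 CPM (log2FC -0.09 ± 0.18, adjusted p = 0.973), where mouse 223 was lowest.

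The other roles were alike in this comparison. *Ugt8a* ran from 6.38 to 54.0 CPM with a median of 13.1 CPM in A-/Pwt/wt (log2FC -0.13 ± 0.47, adjusted p = 0.99), *Fa2h* from 1.13 to 17.3 CPM with a median of 4.52 CPM (log2FC -0.58 ± 0.54, adjusted p = 0.862) and *Aspa* from 2.07 to 14.5 CPM with a median of 5.05 CPM (log2FC -0.12 ± 0.50, adjusted p = 0.995). *Olig1* ran from 15.6 to 119.7 CPM with a median of 50.0 CPM (log2FC -0.52 ± 0.46, adjusted p = 0.853), *Sox10* from 3.53 to 34.2 CPM with a median of 8.63 CPM (log2FC -0.34 ± 0.53, adjusted p = 0.956) and *Myrf* from 6.38 to 69.5 CPM with a median of 14.9 CPM (log2FC -0.02 ± 0.49, adjusted p = 0.998). The largest value in each of these ranges was that of mouse 223. *Bcas1* ran from 1043 to 4103 CPM with a median of 2084 CPM (log2FC 0.07 ± 0.39, adjusted p = 0.998), *Gpr17* from 2.79 to 25.4 CPM with a median of 5.14 CPM (log2FC -0.21 ± 0.56, adjusted p = 0.98) and *Enpp6* from 0.685 to 6.94 CPM with a median of 1.32 CPM (log2FC -0.34 ± 0.58, adjusted p = 0.958). *Cspg5* ran from 13.4 to 119.7 CPM with a median of 48.1 CPM (log2FC -0.45 ± 0.49, adjusted p = 0.909), *Ptprz1* from 23.0 to 176 CPM with a median of 56.2 CPM (log2FC 0.27 ± 0.44, adjusted p = 0.956) and *Pdgfra* from 4.23 to 17.1 CPM with a median of 5.93 CPM (log2FC -0.18 ± 0.35, adjusted p = 0.966). Again 223 was highest for each of these 6 genes.

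Of the 15 other precursor genes, *Sulf2*, a sulfatase that edits heparan sulfate, rose by 1.30 ± 0.18 (log2FC, adjusted p = 0.00255) with separate groups, at 40.4, 65.5, 62.3 and 76.9 CPM in A+/Pwt/wt. *Xylt1*, a xylosyltransferase named after its value was seen, rose by 1.36 ± 0.27 (adjusted p = 0.0285) with overlapping ranges. The median of that list was -0.25, with 5 of 15 positive. The medians were 0.01 for neuronal (7 of 12 positive), 0.04 for astrocyte (7 of 12), -0.06 for microglial (4 of 12), -0.11 for endothelial (1 of 8), -0.31 for mural (1 of 6), 0.19 for choroid plexus (5 of 5) and -0.19 for other oligodendrocyte genes (5 of 24), and -0.36 for the Schwann cell gene tested, none called. Neuronal genes summed to 398 to 4991 CPM in the A-/Pwt/wt libraries (median 868 CPM), astrocyte genes to 803 to 4149 CPM (median 1679.7 CPM) and microglial genes to 15762 to 27807 CPM (median 24288 CPM), and their part was not tested. Without mouse 223 the median of the 30 transcripts was 0.14, with 21 positive, and 497 genes were called. Without 1 of the other libraries it ran from -0.33 (without 331, 2 positive) to -0.05 (without 367, 13 positive), and it was -0.29 without 245 (4 positive). The number of genes called was 91 without mouse 380, 95 without 367 and 97 without 375, and 134 to 137 without 224, 225 or 243. No member was called in any of these fits. Limma on the authors' normalized values gave a median of -0.01 with 15 positive.

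The KI was further compared with WT in CD11b+ cells of males without transgenes. Here transcripts of the lineage were higher in the KI. Of the 29 tested (*Neu4*, a sialidase of precursors, was under the count minimum) 28 had a positive log2FC (KI over WT), with a median of 1.09 where that of all genes was 0.00. At an adjusted p under 0.05, 17 rose (11.1% of all 16373 genes tested) and 0 fell (5.26% of all genes). The ranges of the 4 KI and 3 WT libraries did not overlap for 19 of the 29 members, all higher (15.4% of all genes), and for 0 that were lower (15.4% of all genes). All 5 lineage factors were called, 8 of 11 genes of myelin and membrane proteins, 1 of 3 of lipids, 1 of 3 of newly formed cells, 2 of 6 precursor genes tested, and not *Trf*.

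Among the myelin genes *Cnp* was at 103, 101 and 90.7 CPM in WT mice 94, 101 and 102 and at 128, 157, 167 and 207 CPM in KI mice 84, 104, 136 and 139 (log2FC 0.74 ± 0.15, adjusted p = 0.0128). *Mbp* was at 16698, 17462 and 13648 CPM against 19761, 29314, 42435 and 44378 CPM (log2FC 1.09 ± 0.37, adjusted p = 0.0769) and *Mobp* at 4980.3, 5011 and 4245 CPM against 5757, 8002, 13588 and 14899.7 CPM (log2FC 1.15 ± 0.35, adjusted p = 0.0512). All KI libraries exceeded all WT libraries for these 3, and 136 and 139 were highest. *Mbp* and *Mobp* missed the threshold in edgeR. Both passed it by DESeq2, without the count minimum, without KI 104 and without KI 84. *Mog* (1.04 ± 0.19), *Mal* (1.09 ± 0.24), *Cldn11* (1.25 ± 0.24), *Opalin* (1.46 ± 0.38), *Ermn* (1.09 ± 0.29), *Tspan2* (0.86 ± 0.21) and *Gjc3* (log2FC 1.08 ± 0.27) rose, at adjusted p of 0.00832 to 0.0333. *Mag* was measured at 42.0, 38.6 and 40.5 CPM against 41.8, 54.2, 48.8 and 53.6 CPM (log2FC 0.29 ± 0.11, adjusted p = 0.106).

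Of the lipid genes, *Aspa* was at 1.74, 1.17 and 1.64 CPM in WT and 2.96, 3.43, 4.22 and 5.12 CPM in KI (log2FC 1.36 ± 0.28, adjusted p = 0.0134). *Fa2h* was at 2.18, 2.7004 and 2.02 CPM against 3.34, 3.55, 5.77 and 4.00 CPM (log2FC 0.85 ± 0.26, adjusted p = 0.0559) and *Ugt8a* at 8.62, 10.4 and 7.76 CPM against 8.03, 12.4, 14.7 and 18.2 CPM (log2FC 0.57 ± 0.26, adjusted p = 0.149). *Aspa* and *Fa2h* had separate ranges, and those of *Ugt8a* overlapped through KI mouse 84. *Trf*, at 1782, 1730.0 and 1785 CPM against 1598, 1981, 1095 and 1465 CPM, was the member with a negative value (log2FC -0.20 ± 0.20, adjusted p = 0.509).

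All lineage factors separated the groups. *Olig1* was at 16.5, 14.9 and 13.7 CPM in WT and 27.1, 35.4, 46.6 and 53.6 CPM in KI (log2FC 1.43 ± 0.22, adjusted p = 0.00507), *Sox10* at 6.10, 5.46 and 3.88 CPM against 7.45, 9.90, 13.9 and 10.4 CPM (log2FC 1.01 ± 0.25, adjusted p = 0.0246) and *Myrf* at 9.10, 10.7 and 10.5 CPM against 14.9, 14.6, 25.0 and 25.1 CPM (log2FC 0.97 ± 0.23, adjusted p = 0.0207). *Olig2*, which with *Olig1* specifies the lineage, and *Nkx6-2*, a homeobox factor of myelination, rose by 1.18 and 1.11 on the log2 scale. *Bcas1* was at 979.5, 1061 and 819 CPM against 1108, 1827, 2751 and 2906 CPM (log2FC 1.17 ± 0.31, adjusted p = 0.033), *Gpr17* at 3.68, 4.70 and 2.73 CPM against 4.54, 2.86, 6.62 and 7.62 CPM (log2FC 0.54 ± 0.34, adjusted p = 0.298) and *Enpp6* at 0.291, 1.06 and 0.219 CPM against 1.82, 0.698, 0.908 and 2.31 CPM (log2FC 1.48 ± 0.62, adjusted p = 0.13). *Enpp6* rested on 4 to 18 counts in WT and 11 to 38 counts in KI libraries, and WT 101 alone of the WT libraries reached 10 counts. Its log2FC was 2.50 without WT 101 (adjusted p = 0.0492), 1.14 without WT 102 (adjusted p = 0.349) and 0.53 by limma on the authors' normalized values (adjusted p = 0.128).

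Of the precursor genes, *Cspg5* was at 19.9, 14.7 and 13.1 CPM against 40.3, 33.8, 52.8 and 68.4 CPM (log2FC 1.61 ± 0.25, adjusted p = 0.00512) and *Ptprz1* at 37.4, 28.8 and 28.7 CPM against 71.8, 47.0, 107 and 107 CPM (log2FC 1.39 ± 0.27, adjusted p = 0.0106). Both had separate groups. *Pdgfra*, at 6.34, 6.69 and 4.59 CPM against 6.93, 3.43, 8.499 and 10.2 CPM (log2FC 0.30 ± 0.33, adjusted p = 0.552), had overlapping ranges, as had *Cspg4* (0.46 ± 0.30), *Vcan* (0.75 ± 0.38) and *Lhfpl3* (log2FC 1.15 ± 0.56), and none of these passed the test.

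Markers of other cells rose too. All 12 neuronal genes rose (median 2.12), and their sum, led by *Camk2a*, was 207, 304 and 210.3 CPM in WT and 667, 881, 1333 and 1549.6 CPM in KI. All 12 astrocyte genes rose (median 1.16), with sums, led by *Slc1a2*, of 1003, 797 and 809 CPM against 1784, 1319, 2583 and 2765 CPM. Endothelial genes were positive in 8 of 8 with 3 called higher (median 0.75), and mural genes in 6 of 6 with 2 called (0.95). Other oligodendrocyte genes were positive in 22 of 23 tested with 15 called (0.91), and other precursor genes in 11 of 13 tested with 6 called (1.12). Of all genes 11.1% were called higher. The choroid plexus genes (5 of 5 positive, 0 called, 0.42) and the Schwann cell gene tested, *Prx* (0.98), were not called. Of 12 microglial genes, with sums of 31604, 31052 and 32358 CPM against 25100.5, 33689.7, 19154 and 21690.0 CPM led by *Csf1r*, 0 were positive (median -0.36) and *Sall1*, a factor of microglial identity, fell by 0.53 on the log2 scale. No gene of these lists was at 0 in every library except *Pmp2*. The mitochondrial share was 3.97% to 5.02% in WT libraries and 7.40% to 12.8% in KI libraries, that of the 30 transcripts 2.21% to 2.65% and 3.03% to 6.03%. The part of these cells and of mitochondrial RNA in the rise of the members was not tested.

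The number of calls hung on single libraries. The members that rose numbered 7 without WT 102 (4.84% of all genes), 9 without KI 139 (6.61%), 10 without WT 94 (6.28%), 11 without KI 136 (7.24%), 12 without WT 101 (6.93%), 21 without KI 104 (20.2%) and 22 without KI 84 (12.2%). *Aspa*, *Cldn11*, *Cspg5*, *Mog*, *Olig1*, *Olig2* and *Ptprz1* were called in each of these 7 fits. Genes called in either direction numbered 894 without WT 102, 1111 without WT 94, 1236 without WT 101, 1353 without KI 139, 1771 without KI 136 and 5439 without KI 104. DESeq2 called 20 members higher (14.8% of all genes) and limma on the authors' normalized values 16 (10.1%).

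**Figure D4:**
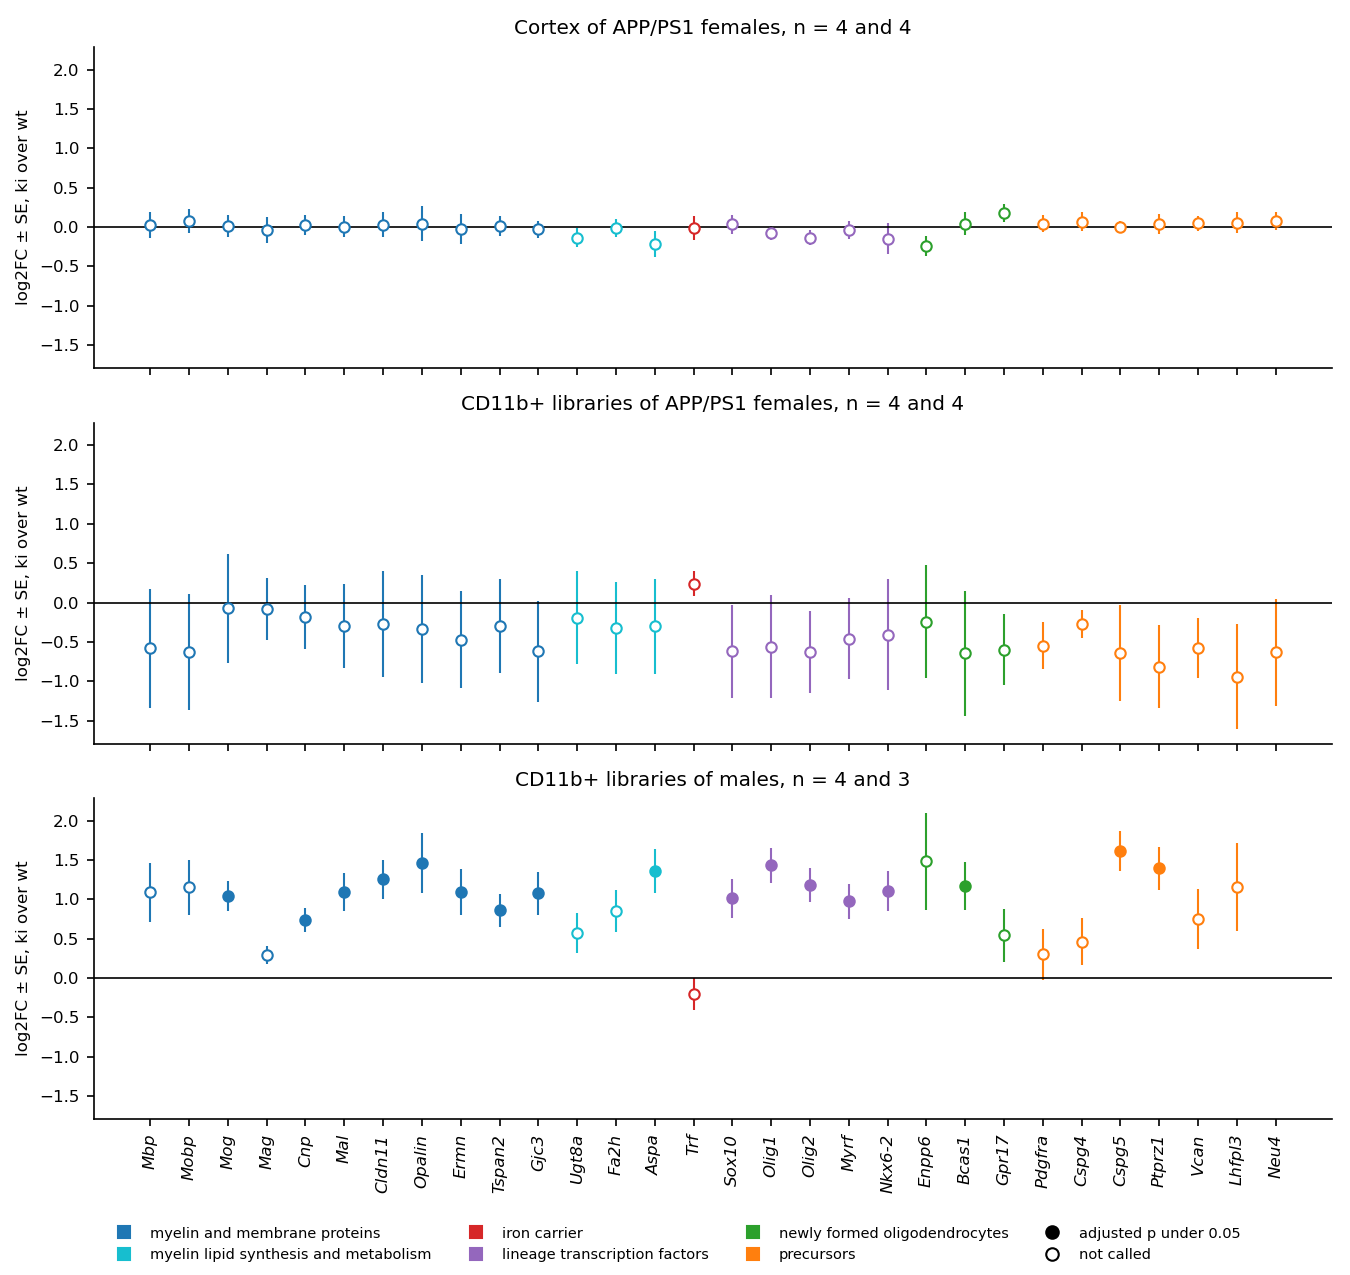
Log2FC of the 30 transcripts between KI and wild-type allele with SE bars, in cortex of APP/PS1 females (4 and 4 libraries), CD11b+ libraries of APP/PS1 females (4 and 4) and CD11b+ libraries of males (4 and 3, without Neu4). Filled points had an adjusted p under 0.05. Cortex values lie within 0.25 of 0, and 17 of the male values are filled.

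The KI effect in male CD11b+ cells was then set against that in APP/PS1 females, where sex, transgenes and batch differ together and cannot be told apart. The difference of the effects (male minus female) was positive for 29 of the 30 transcripts, with a median of 1.54 against 0.01 for all genes, but 0 were called. None of 17619 genes was called (0%, 4664 or 26.5% at an unadjusted p under 0.05, 11 of them members). The largest differences were those of *Cspg5* (log2FC 2.27 ± 0.75, adjusted p = 0.143) and *Ptprz1* (log2FC 2.22 ± 0.67, adjusted p = 0.143), which DESeq2 called, among 1136 genes (6.45%). *Olig1* had a difference of 2.01 ± 0.79, *Mbp* of 1.69 ± 0.91 and *Cnp* of 0.95 ± 0.49, while that of *Trf* was negative (-0.41 ± 0.26). Neuronal genes (12 of 12 positive, median 3.00) and astrocyte genes (12 of 12, 1.95) had larger medians, and microglial genes were negative (12 of 12, -0.55). Medians were 1.21 for endothelial, 1.54 for mural, 1.55 for choroid plexus, 1.38 for other oligodendrocyte and 1.53 for other precursor genes, and 1.06 for the Schwann cell gene tested, with none called. The part of these cells was not tested. The outcome rested on female library 335, without which 27 members and 6199 genes (35.4% of all genes) were called and the median was 2.33. Without 394 and 405 the median was 0.81, with 4 members at an unadjusted p under 0.05 (11.7% of all genes) and 0 called.

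Across the 22 CD11b+ libraries, each centred on its group mean, 25 of 29 transcripts with enough signal had a Pearson r over 0.8 with the mean of the others (median 0.94). The highest were *Tspan2* (0.983), *Cnp* (0.981) and *Cldn11* (0.977), and *Mbp* reached 0.951. *Pdgfra* (0.599) and *Vcan* (0.718) followed the others less closely, and *Trf* (-0.62) and *Cspg4* (-0.19) were negative. Without mice 223, 335, 394 and 405, left out after seeing the data and with the other 18 libraries centred again, 19 of the 29 had an r over 0.8 (median 0.873). *Cnp* (0.966), *Tspan2* (0.963) and *Olig1* (0.961) were then the highest. *Pdgfra* fell to 0.178 and *Vcan* to 0.392, *Trf* was at -0.33 and *Cspg4* at -0.25. These values are descriptions: the genes of a library share its preparation, depth and scaling. In the 8 APP/PS1 cortices the order was different. There 20 of 30 had an r over 0.8, among them *Trf* (0.933), and the precursor genes *Ptprz1* (-0.82), *Pdgfra* (-0.67), *Cspg4* (-0.55), *Vcan* (-0.45) and *Cspg5* (-0.20), together with *Gpr17* (-0.62), were negative. The score of the precursor group had an r of 0.945 with the score of all members among CD11b+ libraries (0.871 without these 4 mice) and of -0.50 among cortices. The precursor genes are part of the score of all members, so these r are in part those of a score with itself.

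Outside all lists, the 10 genes closest to the mean of the members in CD11b+ libraries were *Mapk10* (r = 0.992 of 14816 genes compared), *Tubb4a*, *Phactr3*, *Faim2*, *Elavl3*, *Clip3*, *Klhl2*, *Aplp1*, *Nrxn2* and *Syn2* (0.986). Without the 4 mice left out above their r was 0.963 to 0.978, and 2 of them, *Mapk10* and *Faim2*, were still among the 10 closest. In cortex they were *Tprn* (0.993 of 14814), *Adamtsl4*, *Slc25a5*, *Ttyh2*, *Gatm*, *Rpl30*, *Tnfaip6*, *Frmd8*, *Hibadh* and *Serpinb1a* (0.975). No gene was among the 10 of both CD11b+ libraries and cortex. Several of the former, such as *Elavl3* and *Syn2*, encode neuronal proteins.

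The score of the 30 transcripts was close to that of other cells in CD11b+ libraries. Over the 22 libraries, again centred on their groups, its r was 0.984 (Spearman rho 0.957) with the neuronal score, 0.933 (0.922) with the astrocyte score, 0.980 (0.989) with that of other oligodendrocyte genes, 0.961 (0.945) with that of other precursor genes, and 0.956 (0.923) with the share of mitochondrial transcripts. It was 0.535 (0.606) with the endothelial, 0.453 (0.545) with the mural, 0.643 (0.523) with the choroid plexus and 0.227 (0.232) with the Schwann cell score, and -0.80 (-0.83) with the microglial score. Libraries with a higher score of the 30 transcripts thus had more neuronal and mitochondrial RNA and less of the microglial genes. Without mice 223, 335, 394 and 405 the r over 18 libraries was 0.962 with the neuronal score, 0.863 with the astrocyte score, 0.973 with other oligodendrocyte genes, 0.939 with other precursor genes and 0.936 with mitochondrial transcripts. It was 0.172 with the endothelial, 0.105 with the mural, 0.393 with the choroid plexus, 0.223 with the Schwann cell and -0.54 with the microglial score. In cortex the corresponding r was 0.976 with other oligodendrocyte genes, 0.429 with neuronal, -0.67 with astrocyte, 0.02 with microglial genes and 0.246 with mitochondrial transcripts (n = 8). There it was -0.19 with other precursor, -0.61 with endothelial, -0.62 with mural, 0.391 with choroid plexus and -0.01 with Schwann cell genes.

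**Figure D5:**
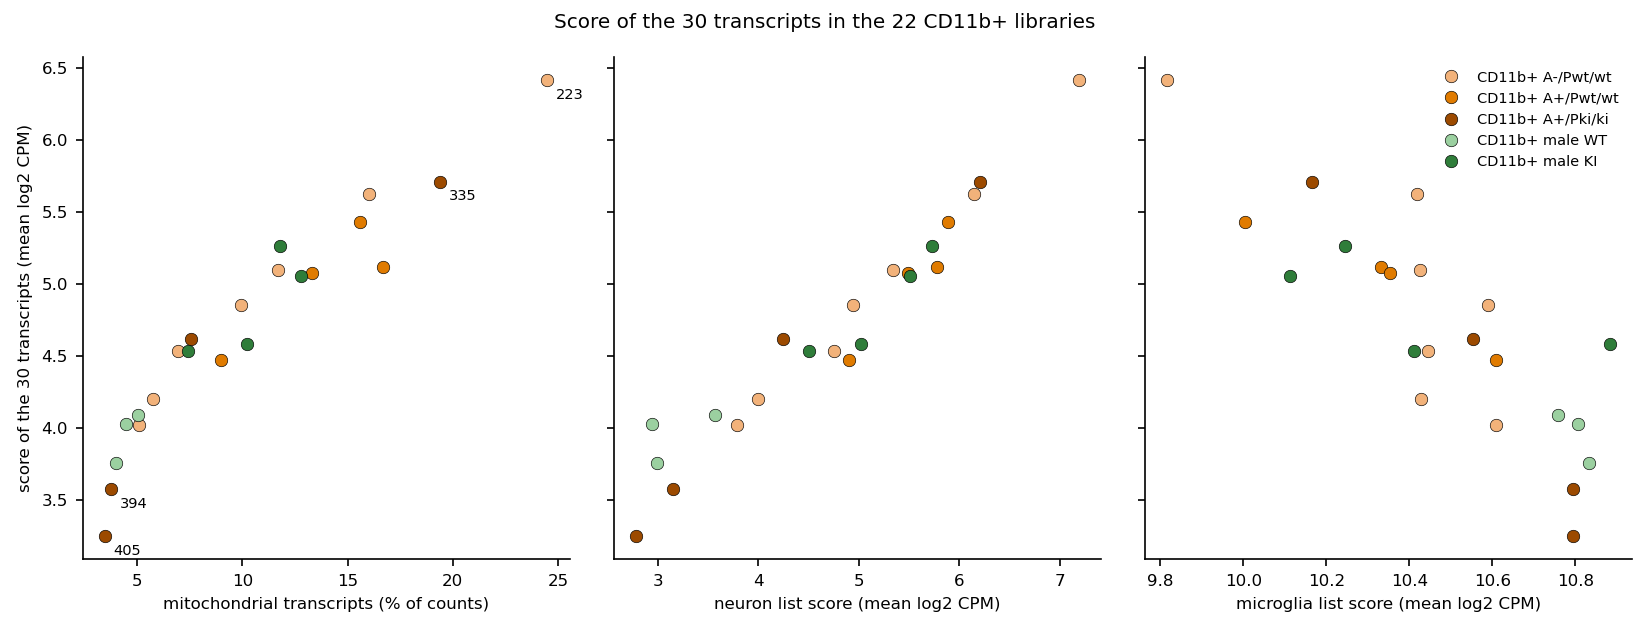
Score of the 30 transcripts (mean log2 CPM) in the 22 CD11b+ libraries against the share of mitochondrial transcripts in percent of counts, the neuronal score and the microglial score (both mean log2 CPM). Points are libraries coloured by group, and mice 223, 335, 394 and 405 are marked. The score rises with the first 2 measures and falls with the third.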

How the data were processed

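Per the labels and the methods of the study, paired-end reads of oligo(dT)-enriched mRNA libraries were checked with FastQC 0.11.7, trimmed with Trimmomatic 0.39, aligned with STAR 2.7.9a to GRCm38 (Gencode annotation) and counted with featureCounts 2.12.0 in R 4.2.2. The deposited counts are whole numbers of primary alignments with a unique position, without regard to strand and not normalized, for 55401 genes in 31 libraries. The authors also deposited normalized values, variance-stabilized with DESeq2 on a log2-like scale, for 19287 genes of cortex, 18166 of female and 16373 of male CD11b+ cells. Every column of samples was matched by tissue, sex, genotype and mouse number (0 unused).

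A gene was kept if 3 or more of the libraries fitted had 10 or more counts. Tests were made with edgeR 4.0.16 (quasi-likelihood, both directions; R 4.3.3) after TMM scaling, on the libraries of each of the 6 comparisons alone, with Benjamini-Hochberg adjustment over all genes and an FDR of 0.05. The SE of a log2FC was taken from the F statistic. P-values set the difference between groups against the spread of the libraries within a group, each from 1 mouse. Scores are means of log2 CPM with a prior count of 2. No 2 libraries of a group were copies of each other. Alternatives were DESeq2 size factors, other count minimums, the Wald test of DESeq2 1.42.0, limma 3.58.1 on the normalized values, library totals, all groups of a table in 1 fit, and each library left out. The scripts were tested on simulated data.

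The 30 members, their 6 role groups, 9 further lists (98 genes) and the tests were chosen with earlier results of these data known. Any member could be named. Of each further list, the 3 most abundant genes and any called gene with separate groups could be named, and full statistics were given for the 3 members of each role with the highest cortex CPM (*Trf* is the only iron carrier). Exons of 9 members overlap a gene on the other strand (*Cnp*, *Ermn*, *Tspan2*, *Olig1*, *Nkx6-2*, *Bcas1*, *Gpr17*, *Pdgfra* and *Lhfpl3*) and of 3 a gene on the same strand (*Mobp*, *Trf* and *Pdgfra*), which makes their counts uncertain. Exon lengths were taken from Gencode M21, which holds 55141 of the 55401 identifiers and all 30 members.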

Additional observations from a re-analysis of the deposited data

Results flagged for a closer look

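Of 222 sets of 4 to 10 values tested for a library far from the others, 13 were noted, where chance gives about 1 in 20. Mouse 223 was far above the other 6 CD11b+ A-/Pwt/wt libraries for *Mal* (295 CPM, the next 156 CPM), *Gjc3* (177 and 68.3 CPM), *Myrf* (69.5 and 20.8 CPM), *Gpr17* (25.4 and 6.74 CPM), *Pdgfra* (17.1 and 9.68 CPM), *Vcan* (8.89 and 2.40 CPM), *Lhfpl3* (5.78 and 1.93 CPM) and *Neu4* (3.61 and 1.53 CPM). This library also had the highest share of mitochondrial transcripts, 24.5%. Mouse 335 stood above the other 3 CD11b+ A+/Pki/ki libraries for *Opalin* (13.3 and 3.25 CPM) and *Neu4* (1.79 and 0.384 CPM).

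Mouse 367 stood below the other CD11b+ A+/Pwt/wt libraries for *Ugt8a* (10.97 CPM, the next 19.9 CPM). Of the A+/Pki/ki cortices, mouse 184 was high for *Myrf* (60.9 and 52.9 CPM) and mouse 216 for *Cspg4* (30.2 and 23.7 CPM).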

How the results depend on the processing

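No called value of a member changed sign, except that of *Gjc3* between CD11b+ cells and cortex, which was -0.76 with the A+/Pki/ki libraries without 335. In cortex, 40 genes were called without the count minimum, 11 by DESeq2 and 0 to 2 with a library left out, none of them members. In CD11b+ cells of APP/PS1 females DESeq2 called 7 genes and the fits without 1 library 0 to 1. The median of the members there ran from -1.18 to -0.21 with 1 library left out. For A+/Pwt/wt against A-/Pwt/wt, DESeq2 called 636 genes, and 91 to 497 were called with a library left out. In males DESeq2 called 3719 genes where edgeR called 2685, and the median was 0.75 by limma. With a male library left out 894 to 5439 genes and 7 to 22 members were called. The fit of all groups of a table could not differ there, since the male table holds only these groups. Between CD11b+ cells and cortex the median was -1.89 with library totals, and with the A+/Pki/ki libraries it was -2.44 without 335 and -1.02 without 394 and 405. For the difference of the KI effects DESeq2 called 1136 genes and 2 members. With a library left out 0 to 6199 genes and 0 to 27 members were called and the median ran from 1.22 to 2.33, and it was 0.81 without mice 394 and 405. The cause of these shifts was not tested. For single genes with full statistics, 519 values under other scalings, filters and tools kept their side of the threshold and 9 passed it only there. With a library left out 877 kept it, 22 passed it only there and 13 no longer did. No paired analysis was possible because the groups share fewer than 2 mouse numbers. With 3 to 7 mice a group, differences within the spread of these libraries cannot be shown.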

Other observations

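Among the further lists in cortex, endothelial and choroid plexus genes had the largest medians between A+/Pki/ki and A+/Pwt/wt, without a call. Endothelial genes were positive in 8 of 8 (median 0.29), with *Flt1*, encoding a receptor for vascular endothelial growth factor, at 43.7, 63.8, 39.6 and 57.2 CPM against 52.5, 68.9, 85.7 and 50.6 CPM (log2FC 0.32 ± 0.17, adjusted p = 1.00). The groups overlapped. Choroid plexus genes were positive in 5 of 5 (median 0.28) at summed levels of 15.5, 12.03, 9.25 and 17.97 CPM against 30.4, 14.0, 9.48 and 16.8 CPM, and mural genes in 5 of 6 (median 0.10). Positive values were found in 9 of 12 astrocyte genes (median 0.07), 7 of 12 microglial (0.01), 6 of 12 neuronal (0.00) and 1 of 3 Schwann cell genes tested (-0.18).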
